A study of Mus musculus with 59 samples.

Results

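RNA-seq of mouse embryonic stem cells (ESCs) of the *Ring1A/B* conditional line was described in 4 of the 59 libraries of the series, 2 mutant-named and 2 control-named ESC libraries. Libraries were grouped by the names of the deposited files and not by their sample labels, because names and labels conflict. In this line the name differs from the label in 4 of 8 libraries, and in the whole series in 21 of 59. The 8 libraries form the same 4 pairs by either source, but the names of 2 of the pairs are exchanged. The 2 libraries called mutant-named ESCs here are labelled control embryoid bodies (EBs, aggregates of differentiating ESCs), and the 2 called control-named EBs are labelled mutant ESCs. The control-named ESCs and the mutant-named EBs carry the same condition in both sources. Every statement below depends on the file names, and values by label are given beside the main counts.

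The control genotype is ERT2-Cre;Ring1a-/-;Ring1bf/f without 4-hydroxytamoxifen (4-OHT), and the mutant genotype is ERT2-Cre;Ring1a-/-;Ring1bdelta/delta with 4-OHT, which lets a Cre recombinase fused to the oestrogen receptor and expressed from the *Rosa26* locus remove *Ring1B*. *Ring1A* is therefore absent in controls and mutants alike, and the comparison is of loss of RING1B in cells that already lacked RING1A. Controls received no 4-OHT, so effects of the drug or of active Cre cannot be told apart from those of the deletion. ESCs were kept with LIF and the inhibitors SU5402, PD184352 and CHIR99021 on mouse embryonic fibroblast (MEF) feeders, and EBs were grown for 2 days in suspension without them. No source used here says whether the line is a clone or whether the replicates were separate cultures, so that *p*-values measure only the spread between libraries, which may be technical.

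RING1A and RING1B are the catalytic subunits of Polycomb repressive complex 1 (PRC1) and attach ubiquitin to histone H2A. Canonical PRC1 holds CBX and PHC proteins and recognises H3K27me3, the mark of PRC2, whereas variant PRC1 holds RYBP or YAF2 and is brought to CpG islands by other partners such as KDM2B, or to promoters by sequence-specific factors such as MGA and E2F6. In ESCs PRC1 is known for holding genes of development, such as the *Hox* clusters, at a low transcript level.

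The values are transcripts per 1000000 (TPM), a relative abundance corrected for transcript length, so that each library sums to the same total and a rise of some genes lowers the share left for others. The sequencing depth is unknown. Between 6063 and 7070 of 24391 listed genes were at 0 in the 4 ESC-named libraries. Replicates correlated across 20344 genes with r = 0.981 in the mutant-named and 0.985 in the control-named ESCs on the log2 scale, and no pair of libraries in the line held identical values. The 10 markers of undifferentiated ESCs summed to 4140 and 4200 TPM in the mutant-named ESCs and to 4930 and 5030 TPM in the control-named ESCs, against sums of 4810 to 5860 TPM in the control ESCs and of 1820 to 2550 TPM in the control EBs of the *Pcgf1* line, whose names and labels do not conflict. The 8 EB markers summed to 116 and 122 TPM in the mutant-named and 74.6 and 72.8 TPM in the control-named ESCs, against 1160 to 3120 TPM in *Pcgf1* control EBs. The libraries labelled mutant ESCs, here control-named EBs, had 2010 and 1990 TPM of ESC markers and 1240 and 1210 TPM of EB markers, inside both ranges of the *Pcgf1* control EBs.

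*Ring1* (*Ring1A*; chromosome 17 of mm9, 34157737 to 34161625, minus strand) was at 0.973 to 3.41 TPM in the 8 libraries of the line and at 6.82 to 20.4 TPM in all 43 libraries of the 4 *Pcgf* lines, with no overlap. *Rnf2*, which encodes RING1B (chromosome 1 of mm9, 153316536 to 153347953, minus strand), was not lower in the mutant-named ESCs. It had 95.1 and 83.2 TPM in mutant-named and 78.2 and 77.2 TPM in control-named ESCs (log2 fold change 0.20, SE 0.06, adjusted *p* = 0.0348 in limma), a call that was lost with other scalings, with only these groups fitted and, among single libraries left out, without either control-named one (adjusted *p* = 0.13 and 0.164) or mutant-named replicate 1 (0.0691). A gene-level TPM does not show which exons the transcripts hold, so *Rnf2* neither checks nor contradicts the mutant name, and the groups are called mutant-named and control-named throughout.

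In the mutant-named ESCs 5825 of 20344 genes tested (28.6%) were higher and 2970 (14.6%) lower than in the control-named ESCs (limma on log2(TPM + 0.1), adjusted *p* under 0.05, n = 2 against 2). Larger changes were mostly increases. Beyond a log2 fold change of 1 in either direction, 2713 genes (13.3%) were higher and 408 (2.01%) lower. Both mutant-named libraries lay above both control-named ones in 8681 genes (42.7%) and below both in 5047 (24.8%). For a single gene in 2 against 2 libraries an exact two-sided permutation test cannot go below *p* = 0.333, so all calls rest on the spread pooled across genes. The split between higher and lower depends on the scaling. Of the calls 66.2% were higher in TPM, where the median log2 fold change of all genes was 0.12. With median-of-ratios scaling the share was 50.9% (4585 higher, 4427 lower, median 0.0045), and with quantile normalization 45.6% (3901 higher, 4649 lower, median -0.02). No called gene named below changed direction with these scalings, and the calls of *Rnf2* and *Egr3* were lost. Grouped by label, the comparison would be of the control-named EBs with the control-named ESCs, with 5121 genes higher and 4807 lower.

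**Figure D1:**
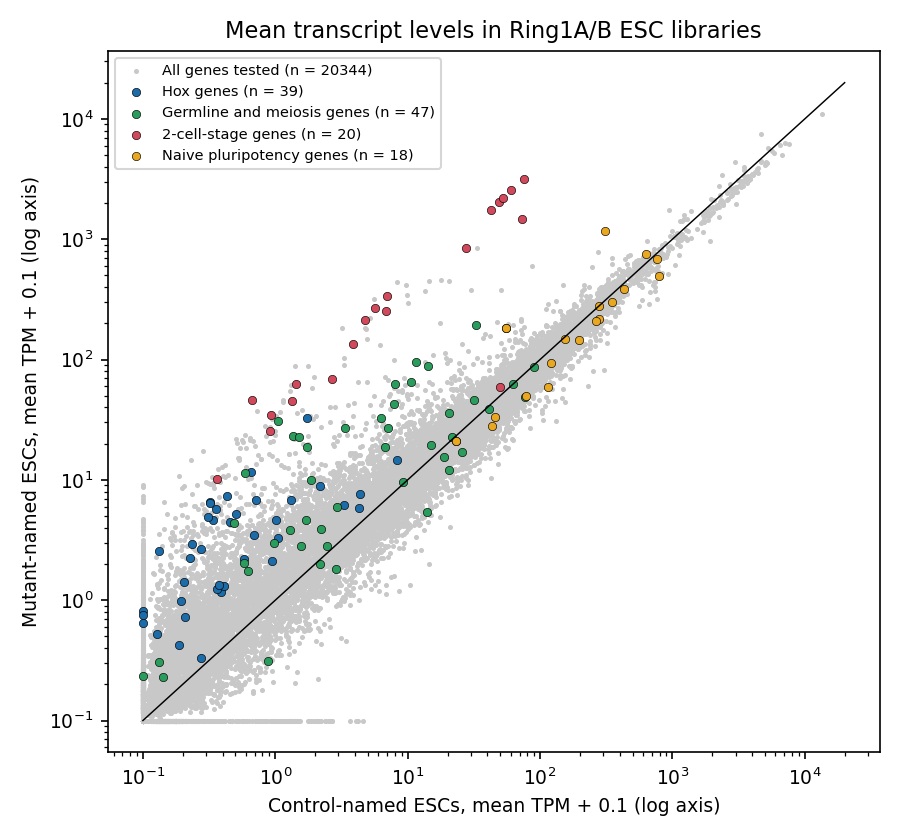
Mean TPM + 0.1 of each gene tested in the 2 control-named (x axis) and the 2 mutant-named ESC libraries (y axis), both on log axes, with 4 gene lists in colour and the line of equal values. Most 2-cell-stage genes, though not *Eif1ad*, and most *Hox* genes lie far above the line. Most germline genes lie above it and others on or below it, and most naive pluripotency genes lie near it.

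More genes were detected in the mutant-named ESCs. Genes at 1 TPM or more numbered 14137 and 14131 in the mutant-named and 13141 and 13134 in the control-named ESCs. A mean under 0.5 TPM in control-named and of at least 5 TPM in mutant-named ESCs was found for 73 genes, and the reverse for 0. The 10 called genes with the highest log2 fold change were *Esp24*, *Mir7688*, *Klhl6*, *Tdpoz3*, *Mir6986*, *Olfr376*, *Mir6384*, *Gm10696*, *AU019990* and *AA792892*. *Esp24*, of the exocrine gland-secreted peptides, was at 7.03 and 10.8 TPM against a listed 0 in both control-named libraries, and *Klhl6*, of the kelch-like family, at 7.38 and 7.17 TPM against 0. *Olfr376*, an olfactory receptor gene, had 15 and 14.1 against 0.121 and 0.137 TPM, and *AA792892* had 193 and 175 against 3.13 and 3.02 TPM. *Tie1*, an endothelial receptor tyrosine kinase (chromosome 4 of mm9, 118143796 to 118162666, minus strand), which was picked after its values were seen, had 86.5 and 89.3 against 1.99 and 1.37 TPM (log2 fold change 5.65, SE 0.15, adjusted *p* = 5.41e-07). The 10 genes were picked to have groups that do not overlap. In *Tie1* too both mutant-named libraries lay above both control-named ones, as in 42.7% of all genes. The calls of the 3 miRNA precursor symbols were lost without any single library (adjusted *p* = 0.0652 to 0.117).

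The genes with the largest increase as a list were those of the 2-cell stage, the set of transcripts that the mouse embryo makes when its genome is first switched on and that a small fraction of ESCs in culture expresses from time to time. Of 23 genes listed 22 were in the files, 20 had a value above 0 in the line, and all 20 were higher, against 28.6% of all genes. Their median log2 fold change was 5.33, against 0.12 for all genes. The 20 genes summed to 16100 and 15000 TPM in the mutant-named ESCs and to 454 and 478 TPM in the control-named ESCs. By the EB names they summed to 9440 and 8540 TPM in mutant-named and 492 and 491 TPM in control-named EBs. The 4 mutant-named libraries thus stand apart from the 4 control-named libraries, and the libraries labelled mutant ESCs are among the low ones. In bulk RNA a larger number of cells of this kind and more RNA per cell cannot be told apart.

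*Dux*, the homeodomain factor that activates this programme (chromosome 10 of mm9, 57685047 to 57688454, minus strand), had 65.1 and 72.4 TPM in the mutant-named and 2.16 and 3.04 TPM in the control-named ESCs (log2 fold change 4.69). Its targets of the *Zscan4* cluster, zinc finger genes with a role in telomere maintenance that lie between 11486098 and 11988090 on chromosome 7 of mm9, were the most abundant members. *Zscan4f* had 3270 and 3010 against 73.7 and 76.9 TPM, and *Zscan4c* 2660 and 2440 against 59.3 and 62.1 TPM (log2 fold changes 5.38 and 5.39). In both genes the lowest mutant-named library lay far above the highest control-named one. The ubiquitin protease gene *Usp17lc* had 337 and 335 against 6.62 and 7.05 TPM (5.6, SE 0.06, adjusted *p* = 9.4e-09). *Usp17ld* and *Usp17lb* of the same family differed by 5.56 and 5.48. *Tdpoz3*, a BTB domain gene, had 50.7 and 40.4 against 0.532 and 0.606 TPM (6.09). *Zfp352* had 69.2 and 56.9 against 1.29 and 1.40 TPM, and *Gm8994* 1440 and 1490 against 70.5 and 75.4 TPM. *Arg2*, an arginase, had 47.4 and 42.7 against 0.721 and 1.76 TPM. The exception in size was *Eif1ad*, with 58.1 and 61.0 against 48.8 and 50.7 TPM (0.26). Copies of *Zscan4*, *Usp17l* and *Tdpoz* are nearly identical in sequence, so that the share of each copy is uncertain while the sum over the list is less so. The median of the list was 5.2 with median-of-ratios scaling, 5.06 with quantile normalization and 4.89 with a pseudocount of 1.

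**Figure D2:**
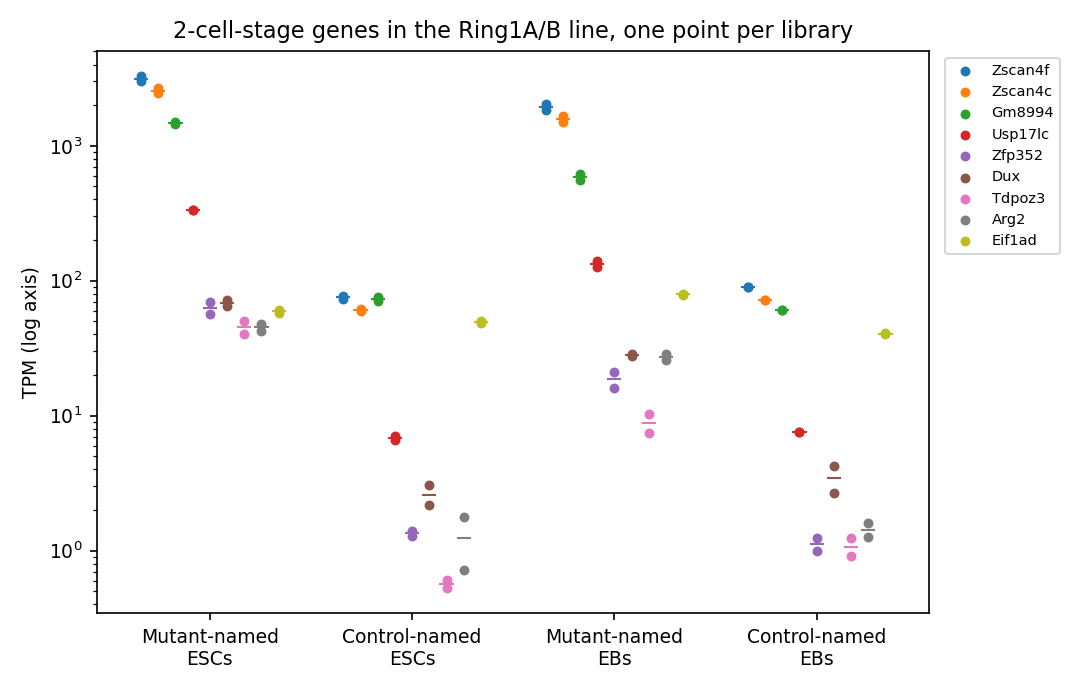
TPM on a log axis of 9 genes of the 2-cell-stage list in the 8 libraries of the *Ring1A/B* line grouped by file name, with a point per library and a bar at the mean. All but *Eif1ad* are far higher in the mutant-named than in the control-named libraries of either kind, whereas *Eif1ad* runs from 40.1 to 79.7 TPM over the 8 libraries.

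*Hox* genes, which give cells their position along the body axis, were higher in 33 of 39 cases and lower in 0. Among all genes 28.6% were higher and 14.6% lower. The *Hox* median log2 fold change was 2.5, against 0.12 for all genes. The *Hox* median was 1.11 with a pseudocount of 1, and 26 of the 39 were called with quantile normalization. All 9 *Hoxd* genes rose (median 3.92), as did 10 of 11 *Hoxa* (3.3), 8 of 10 *Hoxb* (2.41) and 6 of 9 *Hoxc* genes (1.65). *Hoxd13* (chromosome 2 of mm9, 74506367 to 74509656, plus strand), the most posterior gene of its cluster, had 31.9 and 32.9 TPM in the mutant-named and 1.53 and 1.74 TPM in the control-named ESCs (4.23). *Hoxb2* had 5.81 and 6.86 against 0.448 and 0 TPM (4.78), *Hoxa10* 6.73 and 6.12 against 0.279 and 0.159 TPM (4.38), *Hoxa11* 2.29 and 2.60 against 0.0638 and 0 TPM (4.31) and *Hoxa7* 6.93 and 7.68 against 0.150 and 0.511 TPM (4.24). Levels stayed low even where the log2 fold change was large. The *Hox* genes together had 175 and 185 TPM in the mutant-named and 32.9 and 35.5 TPM in the control-named ESCs. *Hoxc12*, with 7.82 and 7.21 against 2.77 and 5.72 TPM, and *Hoxb9*, with 5.08 and 6.39 against 4.38 and 4.06 TPM, did not pass the test, although *Hoxb9* did without mutant-named replicate 1 (0.59, adjusted *p* = 0.0492). *Hox* clusters hold overlapping and antisense transcripts, and whether reads were counted by strand is not given in the sources used here.

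The promoter of *Hoxd13* is shown because PRC1 in ESCs is known to occupy CpG-rich promoters and this gene had the largest mutant-named level in the *Hox* list. The sequence is of the 250 bases before the start of the gene in RefSeq, 5′ to 3′, at chr2:74667975-74668224 of GRCm38.p6 on the plus strand, another build than that of the files, with its 31 CpG dinucleotides in capitals.
Hoxd13: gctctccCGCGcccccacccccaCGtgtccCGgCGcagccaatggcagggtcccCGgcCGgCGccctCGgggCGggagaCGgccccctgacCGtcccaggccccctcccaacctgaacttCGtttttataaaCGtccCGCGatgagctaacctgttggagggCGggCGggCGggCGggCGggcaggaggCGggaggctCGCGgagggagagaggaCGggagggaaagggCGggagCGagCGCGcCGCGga

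CpG number was counted for 14709 of the 20344 genes tested, those with a RefSeq promoter window, which runs from 250 bases before to 50 bases after the start. Among genes with a mean under 1 TPM over the 4 ESC-named libraries, the share called higher with a log2 fold change above 1 was 11.3% of 2052 genes with 0 to 4 CpG, 14.8% of 1105 with 5 to 9, 23.3% of 700 with 10 to 19, 27.8% of 392 with 20 to 29 and 33.3% of 288 with 30 or more. Among genes of 1 TPM or more it was 21.9% in the class of 0 to 4 CpG and 8.32% to 13% in the others. This mean includes the mutant-named libraries, so that a gene that rises strongly can enter the upper class by its rise. When genes were split instead by their mean in the *Pcgf1* control ESCs, which are not part of the comparison, a choice made after seeing the data, the share rose from 15.9% of 2138 genes with 0 to 4 CpG to 47.2% of 360 with 30 or more among genes under 1 TPM, and was 5.82% to 8.4% in every class of the others. The median was 17 CpG over all genes, and 11 of the 12 2-cell-stage genes with a window had 0 to 4. Low genes carry larger errors at a given read number, and promoter classes differ in level, so the shares are a description.

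**Figure D3:**
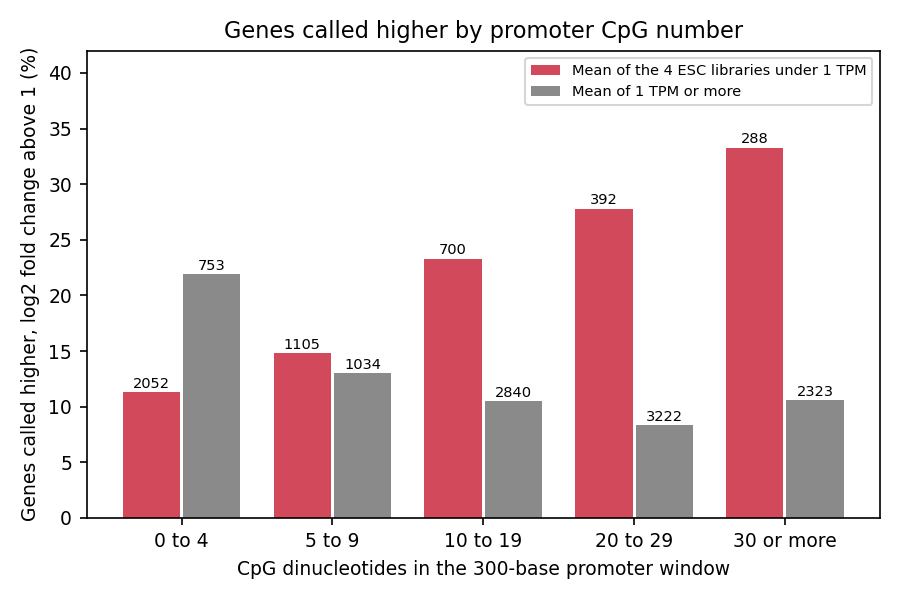
Share of genes called higher with a log2 fold change above 1 (y axis, percent) by the number of CpG dinucleotides in the 300-base promoter window (x axis), for genes with a mean under 1 TPM and for the others, with the number of genes above each bar. The share rises from 11.3% to 33.3% across the classes in genes under 1 TPM and is highest, at 21.9%, in the lowest class in the other genes, where it was 8.4% when genes were split by their level in *Pcgf1* control ESCs.

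Other transcription factors of development followed the *Hox* genes. Of 99 other homeobox and paired genes 79 were higher and 2 lower (median 2.08, and 1.09 with a pseudocount of 1). *Lmx1a*, a LIM homeodomain factor of midbrain and roof plate (chromosome 1 of mm9, 169619370 to 169778872, plus strand), had 24.1 and 22.7 against 0.525 and 0.448 TPM (5.33, SE 0.22, adjusted *p* = 3.6e-06). *Pax9*, of pharyngeal endoderm and teeth, had 4.53 and 5.11 against 0.170 and 0.0646 TPM (4.54), and *Irx4*, of the heart ventricle, had 2.80 and 3.59 against 0.0561 and 0.0639 TPM (4.35). These genes belong to different organs. The 2 lower members were *Otx2* and *Hesx1*, both of the early forebrain and epiblast. *Otx2* (chromosome 14 of mm9, 49277354 to 49287319, minus strand) had 10 and 10.4 TPM in the mutant-named and 43.0 and 42.6 TPM in the control-named ESCs (-2.05, SE 0.05, adjusted *p* = 2.49e-07), and *Hesx1* had 4.46 and 5.10 against 10.7 and 15.8 TPM (-1.42). The call of *Hesx1* was lost without either mutant-named library (adjusted *p* = 0.117 and 0.0861) or control-named replicate 2 (0.125). *Hhex*, with 14.3 and 14.4 against 10.9 and 12.5 TPM, did not pass.

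Among 59 forkhead, GATA, SOX, T-box and ZIC genes 41 were higher and 4 lower (median 1.63). With quantile normalization 29 were higher and 8 lower (median 0.97), and with a pseudocount of 1 the median was 0.83. *Zic1* had 5.35 and 6.54 against 0.0871 and 0.198 TPM (4.67), *Foxe1* 3.33 and 4.44 against 0.392 and 0 TPM (4.15), *Sox8* 5.41 and 5.56 against 0.292 and 0.277 TPM (3.86), and *Sox3*, a neural and epiblast SOX factor, 38.3 and 41.7 against 2.69 and 2.74 TPM (3.83). The lower members included *Zic5*, *Zic2* and *Foxd3*, which ESCs already express, with log2 fold changes of -1.39, -0.88 and -0.87. Of 32 proneural and myogenic bHLH genes 16 were higher and 2 lower (median 1.20), led by *Neurog1* with 1.93 and 3.31 against 0.175 and 0.0998 TPM (3.49) and *Twist2* with 1.29 and 1.83 against 0.111 and 0 TPM (3.49). *Olig1*, at 11.3 and 12.4 against 12.2 and 12.2 TPM, did not pass. The bHLH list had 10 genes higher and a median of 0.68 with quantile normalization, and a median of 0.36 with a pseudocount of 1. These lists compare with 28.6% higher and 14.6% lower among all genes, and with a median of 0.12.

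**Figure D4:**
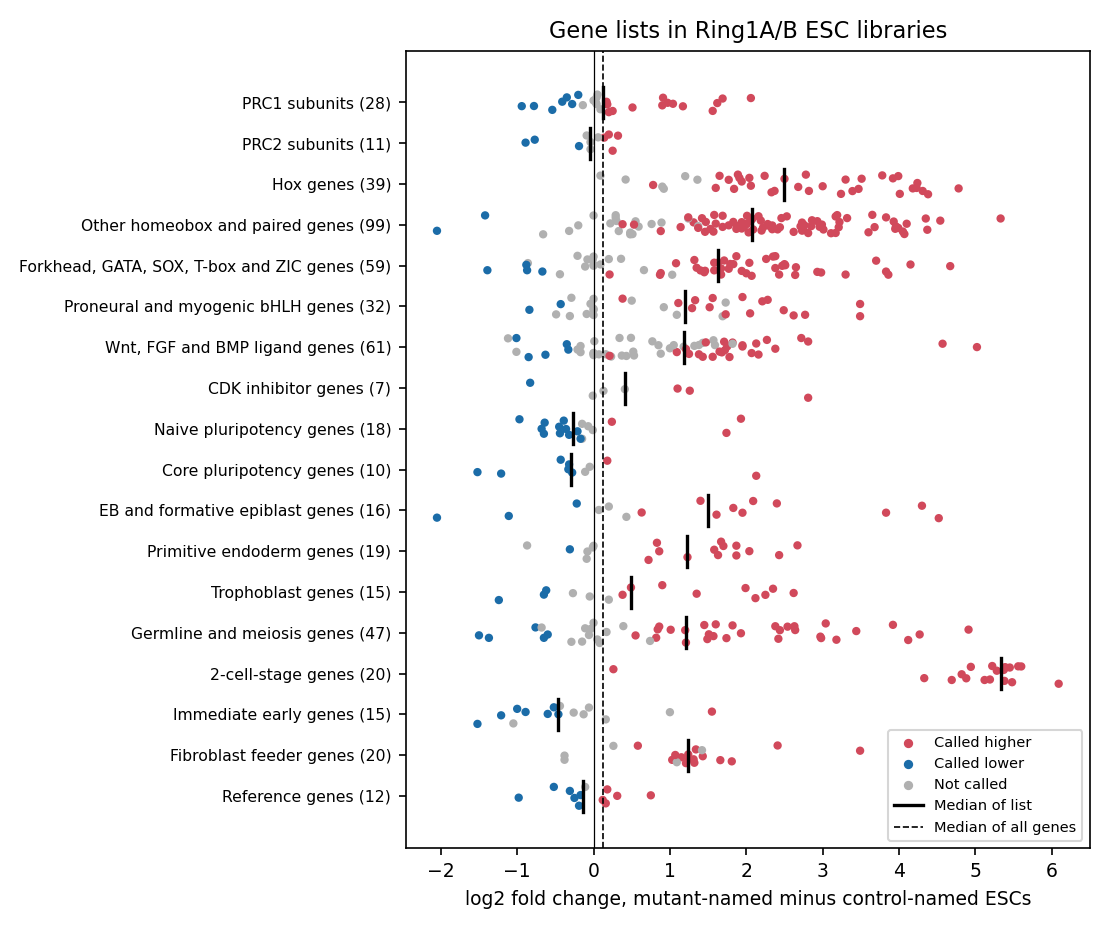
Log2 fold change of mutant-named minus control-named ESCs (x axis) for each member of 18 gene lists (rows, with the number tested), coloured by call, with the median of each list as a black bar and that of all genes as a dashed line. The 2-cell-stage list has the highest median, 5.33, followed by the *Hox* list with 2.5.

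Many germline genes are held at a low level in ESCs, among others by variant PRC1 with PCGF6. The list used here was not silent, with medians of 6.27 and 5.77 TPM in the control-named ESCs. Of 47 germline and meiosis genes 30 were higher (63.8%) and 5 lower (10.6%), against 28.6% and 14.6% of all genes, with a median of 1.21. With quantile normalization 24 were higher and 7 lower (median 0.75), with median-of-ratios scaling 9 were lower, and with a pseudocount of 1 the median was 0.80. *Tex101*, a sperm surface protein gene, had 30 and 31.9 TPM in the mutant-named and 1.11 and 0.789 TPM in the control-named ESCs (4.91, SE 0.22, adjusted *p* = 6.1e-06). *Tdrd1*, a Tudor protein of the piRNA pathway, had 11.6 and 10.8 against 0.483 and 0.489 TPM (4.27), *Taf7l*, a testis form of a TFIID subunit, 22.2 and 23.8 against 1.58 and 0.945 TPM (4.12), and *Slc25a31*, a testis ADP/ATP carrier, 23.4 and 21.6 against 1.11 and 1.73 TPM (3.92). *Mael*, a further piRNA factor, had 93.0 and 96.7 against 12.1 and 10.9 TPM (3.04), and *Dazl*, an RNA-binding protein of germ cells, 199 and 185 against 34.2 and 31.5 TPM (2.54). Both mutant-named libraries lay above both control-named ones in 34 of the 47 genes and below both in 9, against 42.7% and 24.8% of all genes. The meiosis gene *Syce2*, at 88.2 and 85.7 against 89.9 and 89.1 TPM, and *Rnf17*, at 64.4 and 59.9 against 62.7 and 61.8 TPM, were among the most abundant members and did not pass the test.

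The E-box CACGTG, which reads the same on both strands and is the word recognised by the MGA and MAX proteins of PCGF6-PRC1, was counted in the RefSeq promoter windows. It occurred in 9.05% of the 14709 windows of all genes and in 8.63% of the 1877 windows of genes higher by more than a log2 fold change of 1. Of the germline list 37 genes had a window and 14 (37.8%) held it. It was in 11 of 20 germline genes (55.0%) higher by more than 1 and in 3 of 17 others (17.6%). The word TCCCGC, or GCGGGA on the other strand, which E2F proteins recognise, was in 29.7% of all windows, in 5 of the 20 (25%) and in 9 of the 17 germline genes (52.9%). The words can share at most 1 base, at their ends. Such matches describe letters and not binding.

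The 250 bases before the start of 3 germline genes that rose are shown because each holds the E-box at another distance, 223 bases before the start in *Mael* (chr1:166238745-166238994, minus strand), 93 in *Slc25a31* (chr3:40708621-40708870, plus strand) and 49 in *Taf7l* (chrX:134476491-134476740, minus strand). Positions are of GRCm38.p6, sequences are from RefSeq and run 5′ to 3′ along the gene, and the E-box is in capitals.
Mael: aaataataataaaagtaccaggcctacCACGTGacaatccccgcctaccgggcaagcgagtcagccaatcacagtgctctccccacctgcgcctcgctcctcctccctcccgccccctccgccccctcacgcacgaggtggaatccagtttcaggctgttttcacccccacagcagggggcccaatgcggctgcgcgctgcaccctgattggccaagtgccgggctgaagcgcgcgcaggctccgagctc
Slc25a31: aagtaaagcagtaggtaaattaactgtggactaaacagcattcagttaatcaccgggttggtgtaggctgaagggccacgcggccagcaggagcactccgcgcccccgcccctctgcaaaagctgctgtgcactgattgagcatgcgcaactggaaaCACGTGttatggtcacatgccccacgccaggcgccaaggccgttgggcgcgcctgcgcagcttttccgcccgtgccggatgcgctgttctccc
Taf7l: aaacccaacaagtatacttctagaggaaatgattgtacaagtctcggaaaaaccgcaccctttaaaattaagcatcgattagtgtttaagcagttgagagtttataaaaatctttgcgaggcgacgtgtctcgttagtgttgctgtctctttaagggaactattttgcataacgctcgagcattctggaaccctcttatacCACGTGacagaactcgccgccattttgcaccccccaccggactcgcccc

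The secreted signals of development rose in part. Of 61 Wnt, FGF and BMP family ligand genes 26 were higher (42.6%) and 5 lower (8.2%), against 28.6% and 14.6% of all genes, with a median of 1.18. With quantile normalization 20 were higher and 8 lower (median 0.56), and with a pseudocount of 1 the median was 0.31. *Fgf7*, a fibroblast-derived growth factor for epithelia (chromosome 2 of mm9, 125860394 to 125916921, plus strand), had 14.9 and 15.1 against 0.655 and 0.187 TPM (5.02). *Fgf1* had 15.6 and 16.1 against 0.336 and 0.935 TPM (4.57), *Wnt7a* 1.17 and 1.02 against 0.0919 and 0.0523 TPM (2.81) and *Fgf18* 3.73 and 2.59 against 0.184 and 0.734 TPM (2.72). The call of *Fgf18* was lost without mutant-named replicate 1 (2.46, adjusted *p* = 0.0536). *Fgf4*, the FGF that ESCs make themselves, was lower, at 130 and 129 against 260 and 259 TPM (-1.01), as was the Nodal antagonist *Lefty1*, at 56.0 and 65.5 against 110 and 108 TPM (-0.85). *Bmp7*, at 16.5 and 17.8 against 19.2 and 19.6 TPM, did not pass.

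Fibroblast genes moved with these lists. The 20 feeder markers summed to 593 and 627 TPM in the mutant-named and 254 and 251 TPM in the control-named ESCs. Both mutant-named libraries lay above both control-named ones in 18 of 20, against 42.7% of all genes. Of the 20 markers 15 were called higher (median 1.24), against 28.6% of all genes. *Thy1* had 38 and 39.9 against 7.23 and 7.28 TPM (2.41), *Col6a2* 7.62 and 6.41 against 2.11 and 1.74 TPM (1.81) and *Fbn1* 8.05 and 8.30 against 2.71 and 2.35 TPM (1.66), while *Pdgfrb*, at 6.28 and 6.19 against 5.18 and 5.22 TPM, did not pass. *Twist2* stands in this list as well as among the bHLH genes. The feeder sum in *Pcgf1* control ESCs ran from 307 to 411 TPM, between those of the groups. In EBs, grown without feeders, the sum was lower, at 151 and 153 TPM in mutant-named and 91.9 and 87.5 TPM in control-named EBs. There the *Hox* genes summed to 245 and 247 against 34.2 and 32.2 TPM. The part of feeder cells in the differences was not tested.

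The subunits of PRC1 themselves did not move as a block. Of 28 PRC1 genes 14 were higher and 7 lower, both larger shares than the 28.6% and 14.6% of all genes. Their median was 0.13, near the 0.12 of all genes. With median-of-ratios scaling the counts were 10 and 8. *Cbx8* (chromosome 11 of mm9, 118897619 to 118902283, minus strand), a reader of H3K27me3 that differentiating cells use, had 11.5 and 13.8 against 2.93 and 2.98 TPM (2.06). *Phc2* had 44.5 and 46.2 against 14 and 14 TPM (1.69) and *Bcorl1* 18.5 and 18.8 against 6 and 5.94 TPM (1.62). The subunits that prevail in ESCs went the other way. *Cbx7* had 82.9 and 81.9 against 136 and 147 TPM (-0.78) and *Phc1* 123 and 127 against 236 and 243 TPM (-0.94). The variant PRC1 subunit *Rybp*, at 129 and 125 against 128 and 118 TPM, and *Pcgf6*, at 62.7 and 64.3 against 59.7 and 64.3 TPM, did not pass. Of 11 PRC2 genes 4 (36.4%) were higher and 3 (27.3%) lower (median -0.04), against 28.6% and 14.6% of all genes. With median-of-ratios scaling 1 was higher and 6 lower. *Ezh1*, the minor PRC2 methyltransferase, had 19.3 and 18.1 against 34.7 and 34.9 TPM (-0.89), and *Suz12*, a core subunit, 251 and 236 against 252 and 248 TPM, which did not pass.

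Genes of pluripotency were for the most part modestly lower, with exceptions of large size. Of 18 naive pluripotency genes 3 were higher and 11 lower (median -0.27). Of 10 core genes 2 were higher and 6 lower (median -0.30). Among all genes 28.6% were higher and 14.6% lower, with a median of 0.12. *Sox2* (chromosome 3 of mm9, 34548927 to 34551383, plus strand) had 275 and 302 TPM in the mutant-named and 659 and 674 TPM in the control-named ESCs (-1.21, SE 0.05, adjusted *p* = 4.17e-06), and *Sall1* 18.4 and 18.9 against 50.7 and 57.3 TPM (-1.52). *Pou5f1* had 1200 and 1230 against 1500 and 1550 TPM (-0.33). *Nr0b1* had 56.6 and 60.4 against 109 and 120 TPM (-0.97), *Klf2* 469 and 520 against 767 and 812 TPM (-0.68) and *Dppa5a* 5170 and 4850 against 6940 and 6600 TPM (-0.43). Both mutant-named libraries were below both control-named ones in 13 of the 18 naive and 7 of the 10 core genes, against 24.8% of all genes. They were above both in 3 naive and 2 core genes, against 42.7% of all genes. *Klf4*, at 665 and 709 against 754 and 766 TPM, and *Tbx3*, at 269 and 283 against 274 and 281 TPM, did not pass. The higher members were led by *Dppa2* (chromosome 16 of mm9, 48310590 to 48319836, plus strand), an activator of *Dux*, with 209 and 204 against 48.0 and 45.8 TPM (2.13), the F-box gene *Fbxo15* with 1200 and 1150 against 313 and 304 TPM (1.93), and *Dppa3*, a maternal factor also of germ cells, with 177 and 188 against 48.7 and 61.4 TPM (1.74).

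Genes of the first lineages of the embryo were higher in part. Of 19 primitive endoderm genes 13 (68.4%) were higher and 1 (5.26%) lower (median 1.23), against 28.6% and 14.6% of all genes. The median was 0.81 with quantile normalization and 0.82 with a pseudocount of 1, and 3 or 4 genes were lower with other scalings or that pseudocount. *Pdgfra* had 3.24 and 2.85 against 0.390 and 0.395 TPM (2.67) and *Gata6*, a master factor of this lineage, 8.42 and 8.01 against 1.74 and 1.20 TPM (2.43). The 6 markers of this lineage summed to 29.2 and 28.9 TPM in the mutant-named ESCs, 7.1 and 7.6 TPM in the control-named ESCs and 151 and 151 TPM in the mutant-named EBs. Of 15 trophoblast genes 9 were higher and 3 lower (median 0.49), led by *Hand1* with 3.74 and 3.28 against 0.846 and 0.263 TPM (2.62) and *Gata3* with 3.73 and 4.57 against 0.862 and 0.620 TPM (2.35), while 6 markers summed to 38.9 and 44.7 against 43.2 and 42.2 TPM. Of 16 EB and formative epiblast genes 10 (62.5%) were higher and 3 (18.8%) lower. Their median was 1.5, and it was 0.90 with quantile normalization and 0.84 with a pseudocount of 1. *Wt1* had 6.24 and 6.27 against 0.142 and 0.215 TPM (4.52), *Tmem54* 3.04 and 4.24 against 0.250 and 0 TPM (4.30) and *Car4* 2.86 and 2.39 against 0.449 and 0.384 TPM (2.40). *Fgf5*, the usual marker of the formative epiblast, was at 0.540 and 0.791 against 0.816 and 0.465 TPM and did not pass, and *Otx2* was lower.

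Inhibitors of the cell cycle are classical Polycomb targets. Of 7 genes 3 were higher (42.9%) and 1 lower (14.3%), against 28.6% and 14.6% of all genes. *Cdkn1c* (p57; chromosome 7 of mm9, 150644255 to 150646955, minus strand) had 51.3 and 51.3 against 7.06 and 7.36 TPM (2.81, SE 0.07, adjusted *p* = 3.84e-07), *Cdkn2b* 9.96 and 10.3 against 3.46 and 5.01 TPM (1.26) and *Cdkn2c* 3.68 and 4.46 against 1.75 and 1.92 TPM (1.10). *Cdkn1b* was lower, at 23.0 and 24.2 against 42.3 and 41.5 TPM (-0.83). *Cdkn2a*, the best known Polycomb target of the family, had 43.0 and 55.5 against 34.6 and 39.1 TPM and did not pass, although its groups did not overlap.

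In TPM, though not with quantile normalization, lower genes were fewer than higher ones. The 10 called genes with the lowest log2 fold change were all miRNA precursor symbols, *Mir466i*, *Mir7035*, *Mir20b*, *Mir5121*, *Mir6914*, *Mir6908*, *Mir6999*, *Mir7047*, *Mir19b-2* and *Mir1191b*, listed at 0 in both mutant-named ESCs and at 1.37 to 6.95 TPM in the control-named ones. Without any single library the calls of 7 of them were lost (adjusted *p* = 0.0641 to 0.225), and those of *Mir5121*, *Mir6908* and *Mir7047* were kept. Such precursors are short, and of 478 precursors tested 18 were higher and 26 lower, against 28.6% higher and 14.6% lower among all genes. Among longer genes that averaged 20 TPM or more in the control-named ESCs, picked after their values were seen, the mitochondrial gene *Ndufa4l2* had 28.7 and 32.5 against 130 and 136 TPM (-2.12), *Igfbp4*, which binds insulin-like growth factors, 58.3 and 62.5 against 230 and 230 TPM (-1.93), the septin gene *Sept1* 83.9 and 78.8 against 295 and 315 TPM (-1.90), and the growth factor gene *Pdgfc* 13.7 and 13.3 against 48.6 and 48.0 TPM (-1.83). Of 15 immediate early genes, which respond to growth factor signals and handling, 7 (46.7%) were lower and 1 (6.67%) higher (median -0.46). *Junb* had 40.9 and 49.6 against 123 and 135 TPM (-1.52), *Egr1* 135 and 140 against 314 and 323 TPM (-1.21) and *Fosb* 82.0 and 88.1 against 165 and 176 TPM (-1), a call that was lost without any single library (adjusted *p* = 0.0542 to 0.0767). The higher member *Egr3* had 2.53 and 2.51 against 0.692 and 0.913 TPM (1.55), a call lost with quantile normalization (0.82, adjusted *p* = 0.0818). Of 12 reference genes 5 were higher and 6 lower (2 and 7 with median-of-ratios scaling). The glycolytic gene *Pgk1* had 975 and 955 against 1920 and 1900 TPM (-0.98) and *Polr2a*, of RNA polymerase II, 345 and 340 against 199 and 209 TPM (0.75).

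The study sorted RING1B target genes by ChIP-seq in the *Pcgf1* line, not on these libraries. From ESCs to EBs the binding of RING1B rose at Group 1 genes, changed little at Group 2 genes and fell at Group 3 genes. In the mutant-named ESCs Groups 2 and 3 had the higher medians. Of 1358 Group 2 genes tested 751 (55.3%) were higher and 54 lower (median 1.05), and of 67 Group 3 genes 45 (67.2%) were higher and 5 lower (median 1.13), whereas of 153 Group 1 genes 46 (30.1%) were higher and 25 (16.3%) lower with a median of 0.15, near the 28.6% and 14.6% of all genes. Against the control-named mean the medians of the mutant-named libraries were 0.11 and 0.17 in Group 1, 1.04 and 1.12 in Group 2 and 1.22 and 1.15 in Group 3. Group 1 lay within 0.1 of the median of all genes, and its sign turned with quantile normalization, to -0.08. By label the medians would be -0.69, 0.19 and 1.84 in Groups 1 to 3.

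In Group 1 the called genes were led by *Ajap1* with 9.71 and 11.3 against 0.190 and 0.271 TPM (5.01), *Arhgef26* with 41.1 and 40.1 against 2.69 and 2.30 TPM (3.98) and *Syt2* with 2.40 and 2.46 against 0.129 and 0.196 TPM (3.28). *Ckb*, the creatine kinase of brain, had 897 and 960 against 862 and 890 TPM and did not pass. *Ndufa4l2*, above among the lower genes, is a member of this group. In Group 2, *Gm10696* had the highest log2 fold change, with 93.3 and 84.0 against 1.30 and 1.33 TPM (5.97), followed among others by *Lmx1a*, and the group also holds *Usp17le* of the 2-cell-stage list, with 259 and 251 against 5.81 and 7.76 TPM (5.22). In Group 3, after *Wt1* and *Sox3*, *Galnt3*, which starts mucin-type glycans, had 12.5 and 13.1 against 1.11 and 1.04 TPM (3.46), and *Hoxb1* had 0.896 and 0.545 TPM against a listed 0.

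The mutant effect in EBs was compared with that in ESCs within the line. In the paper, depletion of RING1B in this line began together with EB formation, whereas *Pcgf1* was deleted before it. The time since deletion may thus differ between ESCs and EBs and between lines, and its part in the differences was not tested. By name 7447 genes (36.6%) were higher and 4048 (19.9%) lower in mutant-named EBs. The effect differed between ESC-named and EB-named libraries for 7079 of 20344 genes (34.8%). The Group medians in EBs were 1.15, 0.98 and -0.32, so that Group 1 was the higher there and Group 3 the lower. The naive pluripotency list was at -0.27 in ESCs and 1.98 in EBs, and the EB and formative epiblast list at 1.5 and -1.26. *Klf4* had 117 and 118 TPM in mutant-named and 9.90 and 7.38 TPM in control-named EBs (3.76), and *Tbx3* 208 and 206 against 19.8 and 19 TPM (3.41). *Car4* was lower in mutant-named EBs, at 61.0 and 60.9 against 148 and 162 TPM (-1.34), and *Wt1*, at 11 and 10.8 against 13.2 and 13.3 TPM, did not pass there. *Otx2* fell by 1.54 on the log2 scale in EBs. The 5 genes with the largest difference between the effects, *Mir106b*, *Mir7052*, *Mir6942*, *Mir6955* and *Mir6976*, were miRNA precursors at 0 to 21.5 TPM. The 2-cell-stage, *Hox* and primitive endoderm lists were at 4.07, 3.23 and 3.03 in EBs.

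Another line carries point mutations of RING1A and RING1B in place of the deletion. In the *Ring1A*-pm;*Ring1B*-cpm line (ERT2-Cre;Ring1apm/pm;Ring1bpm/pm with 4-OHT, 2 libraries, against ERT2-Cre;Ring1apm/pm;Ring1b without, 2 libraries), point mutations abolish the ligase activity of RING1A and, after 4-OHT, of RING1B. In these ESCs 475 of 20279 genes (2.34%) were higher and 40 (0.197%) lower. The effect differed from that of the mutant-named ESCs for 303 of 21146 genes (1.43%). This count rests on single libraries. It was 124 and 163 without control-named replicates 1 and 2, 187 and 727 without point mutant control replicates 1 and 2, and 189 without point mutant replicate 2. The lines share no control library. Medians in the point mutant ESCs were 2.17 for *Hox* genes (10 of 39 higher), 1.65 for other homeobox genes (26 of 99), 1.04 for germline genes (17 of 47), 0.98 for Group 2 and 0.93 for Group 3. The 2-cell-stage list had a median of 3.26, but 0 of 20 genes passed the test. *Hoxd13* did not differ between the lines beyond the error, with a difference of log2 fold changes of 0.04 (SE 0.41, adjusted *p* = 1.0), and neither did *Zscan4c* (2.11, SE 0.83, adjusted *p* = 0.288). *Dux*, also of the 2-cell-stage list, did differ (3.02, SE 0.6, adjusted *p* = 0.0346), whereas *Zscan4f*, *Usp17lc* and *Tdpoz3* did not pass. *Otx2* differed as well (-2.24, SE 0.26, adjusted *p* = 0.00273). Its log2 fold change in point mutant ESCs was 0.18. The 5 genes with the largest difference were *Mir6942*, *Obox3*, *Fgf7*, *Tie1* and *Mir7047*. *Tie1* had 0.567 to 0.658 TPM in point mutant and 0.299 to 0.646 TPM in their control ESCs, and *Fgf7* 0.0562 to 0.110 and 0.124 to 0.176 TPM. *Dazl*, higher in the mutant-named ESCs, had a log2 fold change of -0.33 in the point mutant line, a difference of 2.87 that did not pass the test (adjusted *p* = 0.0541).

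Deletion of *Pcgf1*, a subunit of a single variant PRC1, gave fewer called genes in ESCs. In *Pcgf1*-KO against control ESCs (5 and 4 libraries) *Pcgf1* fell by 3.23 on the log2 scale (adjusted *p* = 0.000664), and 66 of 20594 genes (0.32%) were higher and 66 (0.32%) lower. Same-numbered libraries of that line deviated together (r from 0.429 to 0.645 in 4 pairs), and when the fit was blocked by that number 522 were higher and 572 lower. The effect differed from that of the mutant-named ESCs for 797 of 21299 genes (3.74%), and for 1777 with the block. Without control-named replicates 1 and 2 the count was 523 and 530. The list medians in *Pcgf1*-KO ESCs were 0.43 for *Hox*, 0.29 for 2-cell-stage, -0.53 for germline, 0.18 for Group 1, 0.09 for Group 2 and -0.02 for Group 3 genes, with 0 *Hox*, 2-cell-stage or germline genes called. *Zscan4c* and *Hoxd13* differed between the lines by 4.94 (SE 1.14, adjusted *p* = 0.0124) and 3.42 (SE 0.74, adjusted *p* = 0.00737). *Otx2* was lower in both, with -2.18 (adjusted *p* = 0.00522) in *Pcgf1*-KO ESCs, and the effects did not differ beyond the error (0.13, SE 0.52). *Dppa2* rose in *Pcgf1*-KO ESCs too, by 0.57 (adjusted *p* = 0.0252). The rise was smaller than in the mutant-named ESCs, with a difference of 1.56 (SE 0.17, adjusted *p* = 2.32e-06).

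**Figure D5:**
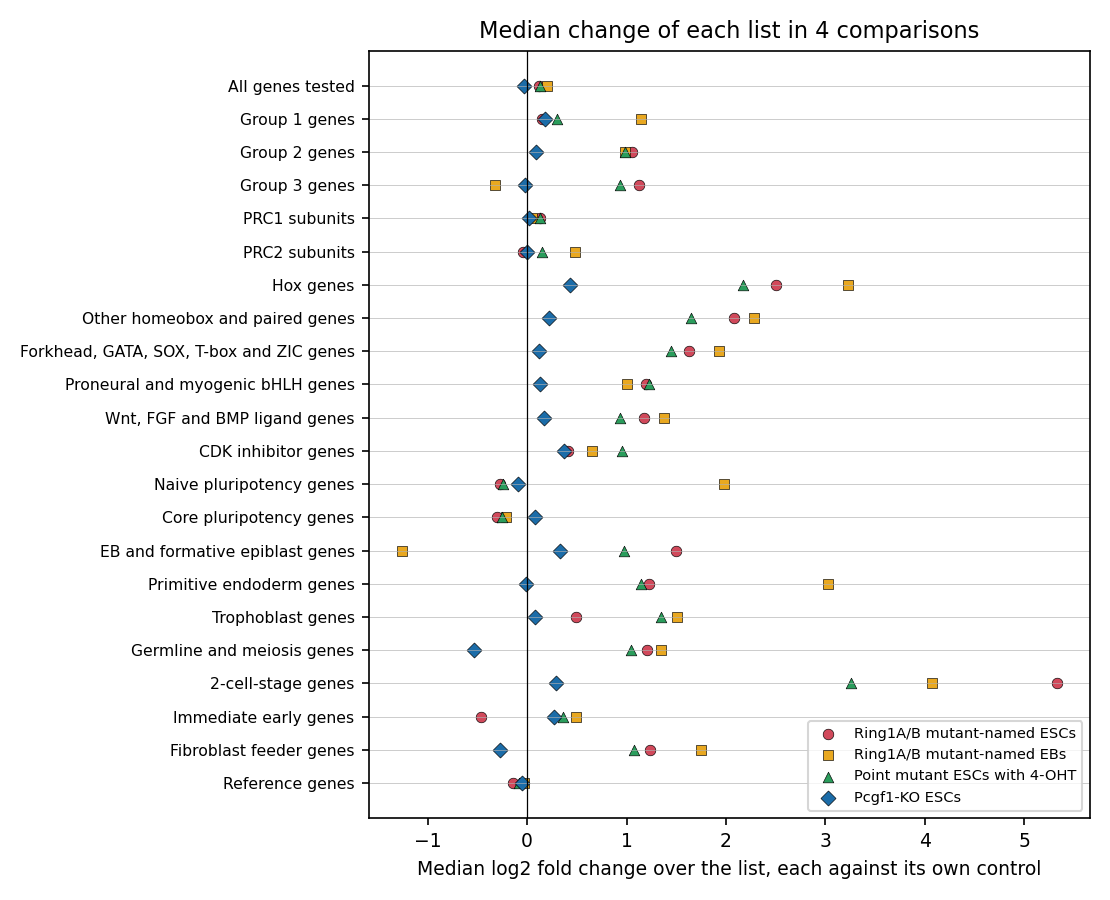
Median log2 fold change of each gene list against its own control (x axis) in 4 comparisons, mutant-named ESCs, mutant-named EBs, point mutant ESCs with 4-OHT and *Pcgf1*-KO ESCs. The 2-cell-stage median is 5.33, 4.07, 3.26 and 0.29 in that order, and the *Hox* median 2.5, 3.23, 2.17 and 0.43.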

How the data were processed

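Poly(A) RNA libraries were made with the NEBNext Ultra II kit. The authors aligned reads with STAR (2.5.2b) to mm9 and deposited TPM for 24391 gene symbols per library. The step from counts to TPM is not given in the sources used here, and the depth is unknown, so no counting interval is given. The deposited TPM values of the 8 libraries of the line were turned into log2(TPM + 0.1) and fitted with limma (3.58.1, R 4.3.3), with a mean per group, a mean-variance trend and Benjamini-Hochberg adjustment over the 20344 genes above 0 TPM in any library. Genes were called at adjusted *p* under 0.05, two-sided. Fold changes are on this scale, which understates those of low genes. Differences between effects were fitted as interactions, for other lines in a fit over both lines with a spread per gene shared by them. The lines differ in spread. *Zscan4c* had an SE of 0.06 in the *Ring1A/B* line, 0.71 in the *Pcgf1* line and 1.14 for the difference. The counts of genes called in each line, or as differing between lines, therefore depend on spread as well as on effect. In simulated data 200 of 20344 genes, each with a mean of at least 1 TPM, were changed, with independent normal noise of the fitted spread. Of genes changed by a log2 fold change of 1, 83% were recovered, and of those changed by 2, 97%. Of the simulated calls 6.25% were false. The real data hold far more called genes, some of them under 1 TPM, so these rates do not carry over to the real calls. Same-numbered libraries of the line did not deviate together (r = -0.00803 over 14035 genes). Same-numbered *Pcgf1* ESC libraries did, in 4 pairs. Groups follow the file names, as stated in the report.

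The libraries and gene lists were chosen with earlier results of these data known. Named genes are *Rnf2* and *Ring1*, the 10 called genes at each end with non-overlapping groups and a mean of at least 1 TPM, up to 4 called and 2 uncalled members of each list, and the 5 largest interactions, while other genes were picked after their values were seen. Some genes that the rule names are not reported here. The alternatives were groups by label, each library left out in turn, only the groups compared, a block by replicate number, a pseudocount of 1, a filter on means under 1 TPM, quantile normalization and scaling by the median of ratios. Positions are of GENCODE M1 for mm9. Promoter sequences are of RefSeq for GRCm38.p6, from the first listed start of a gene, and 14709 of 20344 symbols matched. Lists of RING1B target genes were read from the supplementary data of the study.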

Additional observations from a re-analysis of the deposited data

Results flagged for a closer look

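The effect of the mutant-named libraries differed between ESCs and EBs for 7079 genes by the interaction test, of which 90 are among the 133 genes named. It differed from that in point mutant ESCs for 303 genes, 19 of them named, and from that in *Pcgf1*-KO ESCs for 797 genes, 48 of them named.

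Against EBs the largest differences of log2 fold changes were -8.79 for *Mir106b*, 8.62 for *Mir7052*, -8.28 for *Mir6942*, 8.25 for *Mir6955* and -7.89 for *Mir6976*. Each was listed at 0 in at least 1 library of the line, so that the values depend on the pseudocount. *Mir6942* and *Mir6976* were not called in ESCs, but were without mutant-named replicate 2 (-5.22) and without mutant-named replicate 1 (-6.23), respectively.

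Against point mutant ESCs they were -8.35 for *Mir6942*, 5.61 for *Obox3*, 5.48 for *Fgf7*, 5.27 for *Tie1* and -5.15 for *Mir7047*, which was listed at 0 in the point mutant ESCs and their controls. *Obox3*, a homeobox gene of the oocyte and early embryo, had 6.35 to 6.54 TPM in the mutant-named ESCs and at most 0.103 TPM in the 6 other libraries compared.

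Against *Pcgf1*-KO ESCs they were 6.66 for *Tdpoz3*, 6.58 for *Cfhr2*, 6.56 for *Olfr376*, 6.52 for *Arg2* and 6.49 for *Muc19*. *Cfhr2*, of the complement factor H family, had 3.80 to 6.33 TPM in the mutant-named ESCs and at most 0.709 TPM in the others, and *Muc19*, a mucin gene, 6.61 to 8.40 TPM and at most 0.748 TPM.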

How the results depend on the processing

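Depth is unknown, each group has 2 libraries, and the meaning of every group rests on file names that conflict with the labels. The counts of genes called ran from 6770 to 7033 without a library, with 4540 to 4680 higher and 2220 to 2353 lower. The lower genes numbered 4649 with quantile normalization and 4807 by label. Blocking by replicate number, which did not pair the libraries of this line, gave 5667 higher and 2881 lower genes, 8357 of all of them called in both fits. In the point mutant line, where 2 pairs of libraries share only a number (r = 0.381), the block gave 1188 higher and 138 lower genes in place of 475 and 40.

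The medians of Groups 1, 2 and 3 were 0.09, 0.46 and 0.71 with a pseudocount of 1, 0.04, 0.96 and 1.02 with median-of-ratios scaling, -0.08, 0.52 and 0.71 with quantile normalization, and -0.69, 0.19 and 1.84 by label. With a mean TPM of at least 1 Groups 2 and 3 were at 1.14 and 1.22, and with only these groups fitted Group 2 was at 1.09. Without a library they ran from 0.11 to 0.17, 1.02 to 1.12 and 1.11 to 1.22. The difference from point mutant ESCs held for 476 genes with a pseudocount of 1, 863 with the replicate block, 168 with only the groups compared and 124 to 727 without a library. That from *Pcgf1*-KO ESCs held for 1324, 1777 with the replicate block, 323 with a mean TPM of at least 1 and 523 to 757 without a library. The difference from EBs stayed within 1.5 times in each alternative. The cause of these shifts was not tested.

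Of 1320 values of named genes under alternatives 1225 kept direction and side of the threshold, 63 lost the call, 9 gained it and 23 changed sign, all 23 in genes that were not called. With median-of-ratios scaling the sign turned for *Ring1* (-0.08), *Rybp* (-0.08), *Pcgf6* (-0.09), *Fgf5* (-0.04) and *Ckb* (-0.05), and with quantile normalization for *Ring1* (-0.68), *Pdgfrb* (-0.08), *Rybp* (0), *Pcgf6* (-0.01) and *Fgf5* (-0.76). Without a library the values crossed 0, from -0.38 to 0.46 for *Ring1*, -0.11 to 0.03 for *Olig1*, -0.06 to 0.05 for *Rnf17*, -0.01 to 0.11 for *Rybp*, -0.02 to 0.09 for *Pcgf6*, -0.08 to 0.01 for *Suz12*, -0.04 to 0.03 for *Tbx3*, -0.28 to 0.42 for *Fgf5* and -6.23 to 0.12 for *Mir6976*. With median-of-ratios scaling *Syce2*, *Rnf17*, *Suz12* and *Tbx3* passed the test as lower (-0.17, -0.13, -0.17 and -0.14), with only these groups fitted *Klf4* did (-0.15), and with a mean TPM of at least 1 *Cdkn2a* passed as higher (0.41).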
